A study of Homo sapiens with 21 samples.

Results

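The genes described here encode the machinery that makes the 3′ ends of RNA polymerase II (Pol II) transcripts, with the U1 snRNP proteins and the Integrator complex. They were chosen by symbol from a list of known subunits, after the Entrez identifiers of the count table had been matched to current NCBI symbols. No measured value entered the rule, but earlier results of these data were known when the list was made. All 40 listed genes were found among the 28395 genes of the table, and all 40 were among the 16036 genes that passed the filter on low counts. They comprised 14 Integrator subunits and 26 other genes.

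A messenger RNA ends where the cleavage and polyadenylation machinery cuts the nascent transcript and a poly(A) polymerase adds the tail. CPSF reads the polyadenylation signal and cuts, CFIm and CstF bind sequences around the cut and steer the choice of site, CFIIm couples the cut to termination, and XRN2 then degrades the RNA that remains on Pol II. The U1 snRNP, best known for 5′ splice site recognition, also keeps polyadenylation sites inside introns silent, while Integrator cleaves the ends of small nuclear RNAs and ends transcription early at many genes. CDK12 and CDK13 are kinases that phosphorylate the Pol II C-terminal domain during elongation, and loss of CDK12 activity is known for premature polyadenylation in introns of long genes.

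RNA was measured in Hs578T, an established triple-negative and mesenchymal breast cancer cell line, 8 h after treatment. The 7 groups of 3 libraries were the vehicle DMSO, 0.1 µM THZ531, 3.16 µM lapatinib, 1 µM nilotinib, lapatinib at that dose with 0.1 µM THZ531 (the lapatinib combination), nilotinib at that dose with 0.1 µM THZ531 (the nilotinib combination), and 1 µM THZ531. THZ531 is a covalent inhibitor of CDK12 and CDK13, lapatinib inhibits the receptor tyrosine kinases EGFR and HER2, and nilotinib inhibits the tyrosine kinase ABL. All results come from this one line at a single time, every comparison with DMSO shares the same 3 DMSO libraries, and bulk RNA cannot separate fewer cells from less RNA per cell.

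Library totals lay between 97612207 and 112229052 counts, and the 40 genes held 0.241% to 0.309% of them. Levels in CPM are read counts relative to library size after TMM normalization, a scaling that takes most genes to be unchanged. Mesenchymal markers were high in all 21 libraries (VIM 6395 to 10120 CPM, AXL 1315 to 1889, CDH2 492 to 912, FN1 641 to 2331). The epithelial genes CDH1 and EPCAM and the receptor genes ESR1 and PGR stayed at or below 0.502 CPM, while ERBB2, which encodes the lapatinib target HER2, lay between 24.0 and 42.0. CDK12 mRNA, which does not report on inhibition of the protein, differed from DMSO by a log2 fold change (log2 FC) of 0.50 with 0.1 µM THZ531, −2.02 and −1.65 with the lapatinib and nilotinib combinations and −1.03 with 1 µM THZ531. Under TMM the median log2 FC of all tested genes was −0.01 in the lapatinib combination, −0.013 in the nilotinib combination and −0.01 with 1 µM THZ531. Scaling to library size alone moved these medians to −0.336, −0.315 and −0.268. Scaling to the 13 mitochondrially encoded mRNAs, which Pol II does not transcribe and which held 1.14% to 1.78% of counts, moved them to −0.69, −0.633 and −0.553, so that small rises depend on the scaling while the order among genes does not.

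Replicates of a group differed in a chi-square test over genes by 7.75 to 144 per degree of freedom. Replicate 1 of each combination stood farthest from its group, at 144 and 107 in the lapatinib combination, where replicates 2 and 3 differed by 20, and at 71.4 and 136 in the nilotinib combination, where they differed by 24.5. Without that library, 26 of the 40 genes were lower and 10 higher in the lapatinib combination, and 24 and 11 in the nilotinib combination. The shares of all genes in those fits are not given.

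The first question was how the 3′ end processing genes responded when THZ531 was combined with a kinase inhibitor. Of the 40 genes, 24 fell and 12 rose with the lapatinib combination relative to DMSO at an adjusted p under 0.05 in edgeR's quasi-likelihood test, beside 37.8% lower and 34.3% higher of all tested genes. With a log2 FC beyond 1 as well, 14 were lower and 2 higher (all genes, 21.3% and 7.9%). The nilotinib combination gave 24 lower and 12 higher genes (37.3% and 33.7% of all genes), with 14 lower and 2 higher beyond 1 (20.8% and 6.54%). The higher dose of THZ531 alone gave 25 lower and 10 higher (36.8% and 33.1%), with 14 lower and 0 higher beyond 1 (18.9% and 5.77%). The share of these genes that fell was thus above the background in all 3 treatments. The share that rose was near the background in both combinations and below it with 1 µM THZ531. No difference in shares was tested. The median log2 FC of the 40 genes lay 0.54, 0.43 and 0.67 below the median of all genes in the 3 treatments. A change of scaling shifts all genes of a comparison nearly alike, so this distance could hardly move and stayed within 0.01 of these values. The split moved to 30 lower and 2 higher, 30 and 2, and 29 and 0 when libraries were scaled to mitochondrial mRNAs. With library size alone it was 29 and 8, 29 and 8, and 29 and 7. The shares of all genes above are for TMM and do not apply to these counts. The median of all genes was itself lower under both scalings.

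The libraries themselves gave a similar picture. All 3 libraries of the lapatinib combination lay below all 3 DMSO libraries for 24 of the 40 genes and above them for 13, whereas 38.6% and 34.8% of all tested genes did so. For the nilotinib combination the numbers were 22 and 11 (38.3% and 34.6%), and for 1 µM THZ531 they were 24 and 10 (37.8% and 34.4%). The heat map of all 40 genes shows that CPSF, CFIm, the poly(A) genes and Integrator each held falling and rising members under TMM. The CstF genes moved one way, with 4 lower in each strong treatment under TMM and none higher under any scaling tried. With DESeq2's size factors 3 were called lower in the nilotinib combination. All 3 termination genes and all 3 U1 proteins were higher in both combinations under TMM, of which SCAF8 alone was called higher with the mitochondrial scaling.

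**Figure D1:**
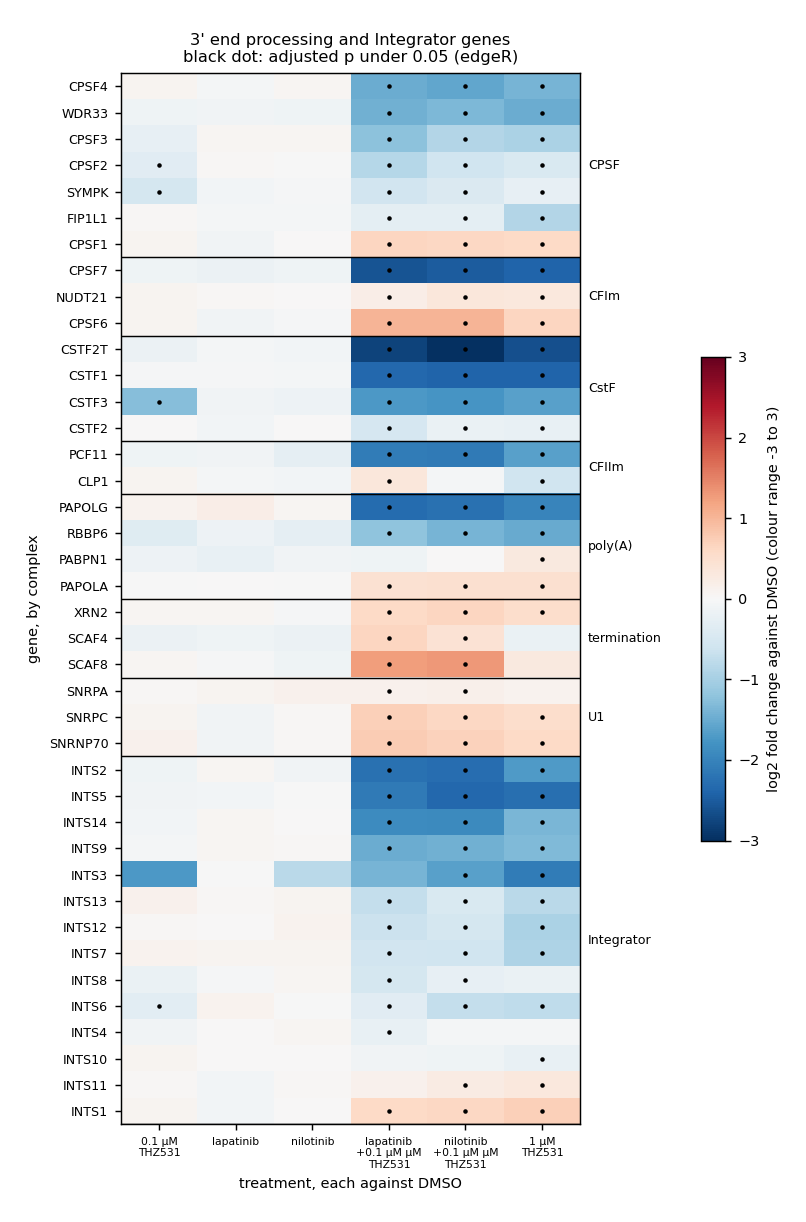
Log2 fold change against DMSO (colour, from −3 in blue to 3 in red) of the 40 genes (rows, by complex) under 6 treatments (columns), with a black dot where edgeR's adjusted p was under 0.05. The right 3 columns hold nearly all dots, with CSTF2T, CPSF7 and CSTF1 among the darkest blue and SCAF8 and CPSF6 the darkest red, and the left column holds dots for CSTF3, SYMPK, CPSF2 and INTS6 only.

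The promoters of 5 genes are shown because these genes mark the ends of the pattern. CPSF7 and CSTF2T fell most in the lapatinib combination, CSTF3 fell most among the genes called at the low dose of THZ531, and CPSF6 and SCAF8 rose most. Each sequence is the 250 bases upstream of the gene's start in RefSeq (GRCh38.p14), read 5′ to 3′ along the gene's strand, with capitals at CCAAT boxes (CCAAT), GC boxes (GGGCGG) and ETS motifs (CCGGAAG) on either strand. The windows lie at chr11:61429976-61430225 (CPSF7, minus strand), chr10:51699596-51699845 (CSTF2T, minus), chr11:33161481-33161730 (CSTF3, minus), chr12:69239319-69239568 (CPSF6, plus) and chr6:154733128-154733377 (SCAF8, plus). SCAF8 has 2 annotated starts, of which the upstream window is shown.
CPSF7: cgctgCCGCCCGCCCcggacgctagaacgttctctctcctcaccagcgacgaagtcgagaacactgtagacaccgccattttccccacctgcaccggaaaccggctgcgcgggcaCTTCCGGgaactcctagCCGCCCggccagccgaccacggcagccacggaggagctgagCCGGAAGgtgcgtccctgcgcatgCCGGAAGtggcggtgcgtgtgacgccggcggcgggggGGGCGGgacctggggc
CSTF2T: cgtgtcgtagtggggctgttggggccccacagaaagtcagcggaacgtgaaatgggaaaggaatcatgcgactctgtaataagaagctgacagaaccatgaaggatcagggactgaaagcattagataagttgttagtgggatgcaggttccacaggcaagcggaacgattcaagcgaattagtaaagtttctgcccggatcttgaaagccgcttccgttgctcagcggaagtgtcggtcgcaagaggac
CSTF3: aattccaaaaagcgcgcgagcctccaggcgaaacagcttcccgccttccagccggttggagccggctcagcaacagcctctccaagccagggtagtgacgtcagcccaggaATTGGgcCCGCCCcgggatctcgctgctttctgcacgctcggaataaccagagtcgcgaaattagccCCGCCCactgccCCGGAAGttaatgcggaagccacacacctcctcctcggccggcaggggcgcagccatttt
CPSF6: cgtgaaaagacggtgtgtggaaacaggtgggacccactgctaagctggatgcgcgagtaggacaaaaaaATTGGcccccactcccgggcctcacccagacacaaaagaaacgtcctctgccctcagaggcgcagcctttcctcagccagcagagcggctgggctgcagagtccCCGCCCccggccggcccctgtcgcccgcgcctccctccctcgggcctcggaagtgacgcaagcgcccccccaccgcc
SCAF8: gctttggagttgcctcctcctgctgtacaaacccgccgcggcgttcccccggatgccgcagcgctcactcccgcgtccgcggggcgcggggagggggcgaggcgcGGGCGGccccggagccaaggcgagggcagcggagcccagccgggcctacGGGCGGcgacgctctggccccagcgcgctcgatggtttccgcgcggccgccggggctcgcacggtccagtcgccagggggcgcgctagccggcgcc

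These windows differed in composition, from 50.8% GC and 0 motifs upstream of CSTF2T to 78.8% GC and 2 GC boxes upstream of SCAF8. The CPSF7 window held 7 motifs at 71.2% GC, with 4 GC boxes, of which the first 2 overlap, and 3 ETS motifs, the CSTF3 window held 4 at 62.8% and the CPSF6 window 2 at 66.8%. Over the 34 of 40 genes with an entry, a GC box was present for 26 (14 of 21 that fell and 9 of 10 that rose in the lapatinib combination), beside 70.7% of tested genes and 46.2% of all genes with an entry. A CCAAT box was present for 15 (9 of 21 and 3 of 10, beside 41.0% and 37.0%), and an ETS motif for 10 (5 of 21 and 3 of 10, beside 17.1% and 10.2%). TATAAA was found for 1 gene, which rose (8.87% and 13.0%), and AAGATGG, a YY1 core, for 1 gene, which fell (4.64% and 4.49%). These matches are a description of letters in the windows and were not tested.

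CPSF contains the endonuclease and the subunits that read the AAUAAA signal, and 6 of its 7 genes were lower and CPSF1 higher in all 3 strong treatments. CPSF4, whose zinc fingers contact the signal, measured 38.5, 35.9 and 39.0 CPM in DMSO and 14, 14.3 and 12.5 CPM in the lapatinib combination. All treated libraries lay far below all DMSO libraries, with a log2 FC of −1.48 ± 0.102 (SE, edgeR adjusted p = 8.655e-11), −1.55 in the nilotinib combination and −1.39 with 1 µM THZ531. WDR33, the other reader of the signal, fell by 1.44, 1.34 and 1.49 on the log2 scale, though its locus shares an opposite-strand gene (SFT2D3) whose counts equal 25.2% of its own. CPSF3, the endonuclease, fell by 1.23, 0.88 and 0.96, and the related but inactive CPSF2 by 0.85, 0.61 and 0.45. The scaffold SYMPK fell by 0.57, 0.43 and 0.26, the last of which lost its call without DMSO replicate 2 (−0.14) or either of 1 µM THZ531 replicates 1 and 3 (adjusted p up to 0.183). FIP1L1, which tethers the poly(A) polymerase, fell by 0.29 and 0.28 in the combinations and by 0.89 with 1 µM THZ531.

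CPSF1, the largest CPSF subunit, moved the other way. It measured 65.9, 76.8 and 71.3 CPM in DMSO and 101.6, 114.8 and 115.6 CPM in the lapatinib combination, without overlap. Its log2 FC was 0.63 ± 0.079 (edgeR adjusted p = 4.835e-07), 0.62 and 0.60 in the 3 treatments under TMM, but −0.05 in the lapatinib combination when scaled to mitochondrial mRNAs. The 6 falls in CPSF were called under every scaling tried.

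CFIm is a tetramer of NUDT21, which binds UGUA, with either CPSF6 or CPSF7, and these last 2 genes moved in opposite directions. CPSF7 (chromosome 11, 61402729 to 61429975, minus strand) measured 123, 127 and 120.2 CPM in DMSO and 19.0, 22.6 and 20.4 CPM in the lapatinib combination. It measured 20.2, 22.1 and 23.4 CPM in the nilotinib combination and 25.0, 18.4 and 26.2 CPM with 1 µM THZ531. All 9 of these libraries lay far below every library of the other 4 groups, and the log2 FC was −2.58 ± 0.108 (edgeR adjusted p = 5.143e-14), −2.50 and −2.41. CPSF6 (chromosome 12, 69239569 to 69274358, plus strand) measured 87.7, 89.7 and 85.8 CPM in DMSO, 169.8, 178.9 and 181.6 CPM in the lapatinib combination and 139.9, 127.8 and 146.8 CPM with 1 µM THZ531. Its log2 FC was 1.01 ± 0.059 (edgeR adjusted p = 6.721e-12), 1.02 and 0.66, and the rise was called under all scalings in both combinations but not with 1 µM THZ531 when scaled to mitochondrial mRNAs. NUDT21 was higher by 0.20, 0.33 and 0.31 under TMM, while its values with the mitochondrial scaling were −0.48, −0.29 and −0.24. The first of these calls was lost without DMSO replicate 2 (0.13) or lapatinib combination replicate 1 (adjusted p up to 0.134).

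The share of CPSF7 in the summed counts of CPSF6 and CPSF7 needs no scaling between libraries. It was 58.3% to 58.7% in DMSO, 54.2% to 55.7% with 0.1 µM THZ531, 56.0% to 57.8% with lapatinib and 55.4% to 57.6% with nilotinib. It then lay at 10.1% to 11.2% in the lapatinib combination, 10.8% to 11.2% in the nilotinib combination and 12.6% to 15.2% with 1 µM THZ531. CPSF7 counts thus went from the larger to a minor part of the pair, and no library of the strong treatments came near the range of the others.

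CstF binds the GU-rich element downstream of the cut, and all 4 of its genes were lower in all 3 strong treatments under every scaling tried, except that CSTF2 was not called in the nilotinib combination with DESeq2's size factors. CSTF2 and its paralog CSTF2T encode related RNA-binding subunits of CstF, and they differed in size of change. CSTF2T (chromosome 10, 51695486 to 51699595, minus strand) measured 36.6, 34.6 and 36.3 CPM in DMSO and 4.38, 6.22 and 5.07 CPM in the lapatinib combination, the lowest log2 FC of the 40 genes there (−2.78 ± 0.163, with −3.08 in the nilotinib combination and −2.64 with 1 µM THZ531). CSTF2 measured 34.2, 34.6 and 35.3 CPM in DMSO and 25.0, 22.9 and 25.4 CPM in the lapatinib combination, with a log2 FC of −0.51, −0.19 and −0.22. The second of these was lost without DMSO replicate 3 or nilotinib combination replicate 2 or 3 (adjusted p up to 0.0929). CSTF2T lies within the gene PRKG1 on the opposite strand, whose counts equal 10.9% of its own, and reads of the paralogs may be split between them.

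As a share of both genes' counts, CSTF2T made up 50.0% to 51.7% in DMSO, 46.9% to 48.5% with 0.1 µM THZ531, 49.5% to 52.6% with lapatinib and 48.0% to 49.9% with nilotinib. It made up 14.9% to 21.4% in the lapatinib combination, 9.49% to 15.5% in the nilotinib combination and 11.7% to 19.6% with 1 µM THZ531, again with no overlap between the strong treatments and the rest.

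CSTF1, the CstF-50 subunit, fell from 41.8, 41.2 and 44.2 CPM in DMSO to 7.18, 9.44 and 8.04 CPM in the lapatinib combination, and its log2 FC was −2.37, −2.41 and −2.40. CSTF3 (chromosome 11, 33084584 to 33161480, minus strand), the scaffold on which the others assemble, measured 49.8, 46.6 and 49.0 CPM in DMSO and 16.0, 14.3 and 13.6 CPM in the lapatinib combination, with a log2 FC of −1.73, −1.77 and −1.63. It was already at 22.1, 21.4 and 16.8 CPM with 0.1 µM THZ531 alone, and its libraries at that dose lay between those of DMSO and those of the strong treatments.

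CFIIm consists of PCF11, which binds the Pol II C-terminal domain and promotes termination, and the RNA kinase CLP1. PCF11 measured 29.2, 31.4 and 28.1 CPM in DMSO and 5.01, 7.94 and 7.88 CPM in the lapatinib combination. Its log2 FC was −2.09 ± 0.16 (edgeR adjusted p = 4.267e-10), −2.11 and −1.62, and all treated libraries lay below all DMSO libraries. CLP1, a gene of 3 exons, was called higher in 1 strong treatment and lower in another. It measured 12.5, 13.5 and 13.7 CPM in DMSO, 16.1, 17.3 and 17.0 CPM in the lapatinib combination, 11.8, 13.1 and 13.0 CPM in the nilotinib combination, and 9.69, 6.001 and 10.4 CPM with 1 µM THZ531. The log2 FC was 0.34 ± 0.128 (edgeR adjusted p = 0.02214), −0.07 (not called) and −0.60. Between the lapatinib and nilotinib combinations CLP1 differed by 0.41 ± 0.129, which was not called (edgeR adjusted p = 0.1338). The rise with lapatinib was lost without DMSO replicate 1 or lapatinib combination replicate 2 or 3 (adjusted p up to 0.0768), and was −0.34 with the mitochondrial scaling.

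**Figure D2:**
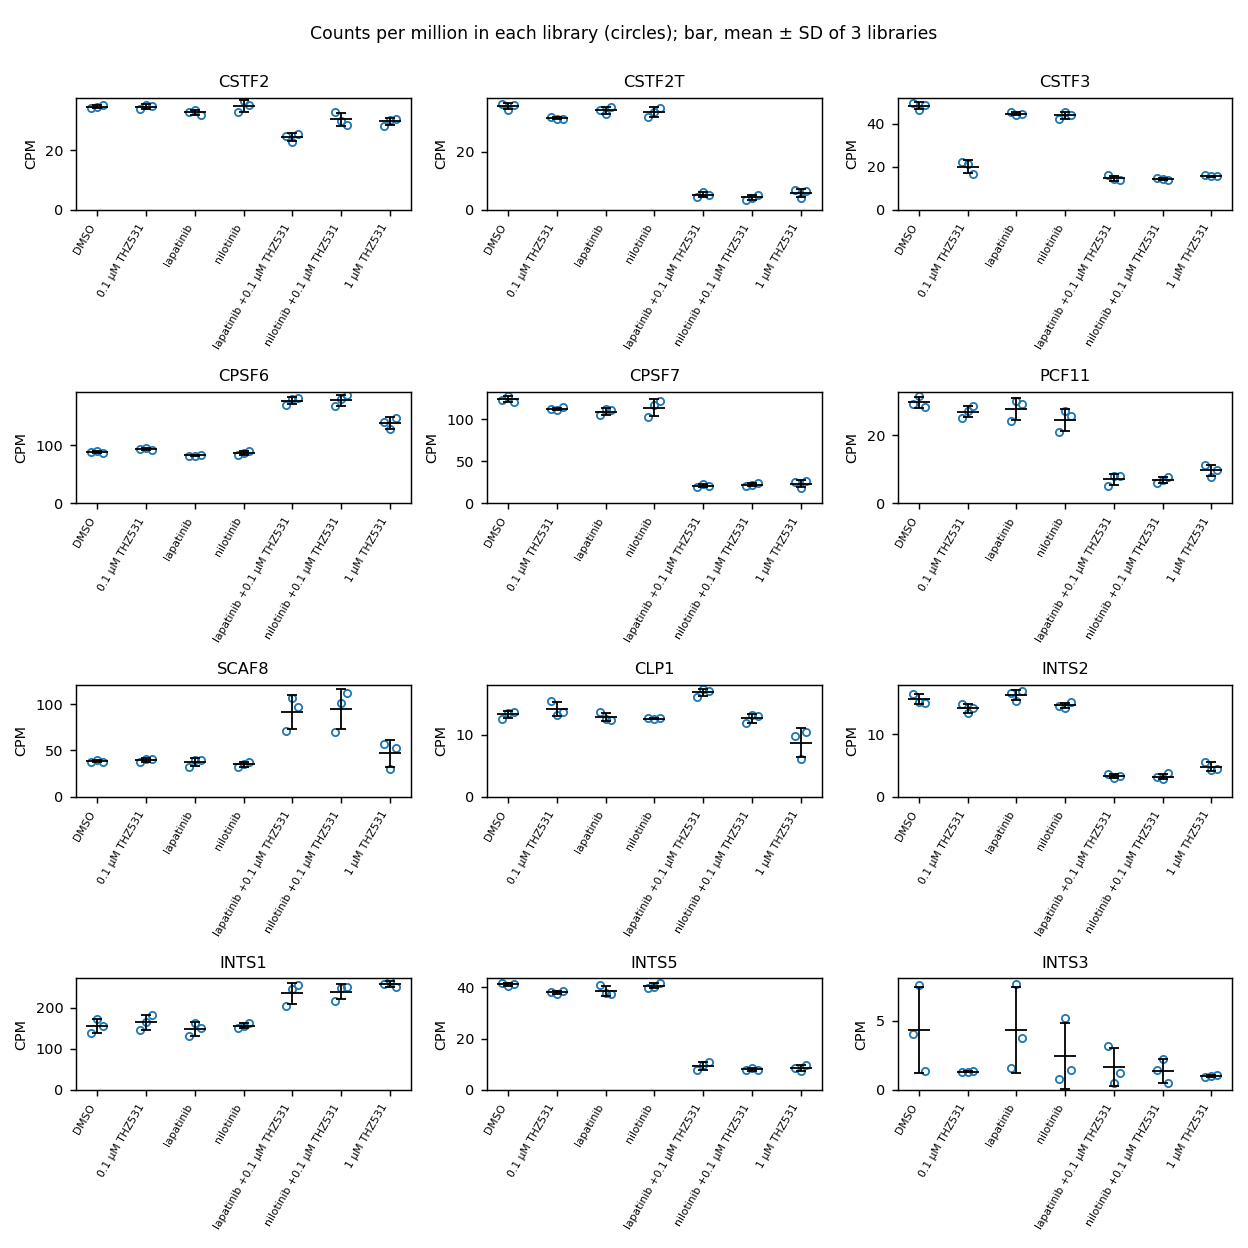
Levels in CPM (TMM-scaled, each axis from 0) of 12 genes in every library (circles) of the 7 groups, with bars for the mean ± SD of 3 libraries. CPSF7, CSTF2T, PCF11, INTS2 and INTS5 are low in the 3 groups at the right, CPSF6 and INTS1 are high there, CSTF3 is already low with 0.1 µM THZ531, and INTS3 scatters within groups.

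Among the poly(A) tail genes, the polymerases PAPOLA and PAPOLG moved apart. PAPOLG, the less abundant nuclear paralog, measured 19.0, 17.5 and 18.6 CPM in DMSO and 3.14, 4.51 and 3.58 CPM in the lapatinib combination (log2 FC −2.30, then −2.24 and −1.98). PAPOLA, the main poly(A) polymerase, measured 304.5, 278.4 and 290.6 CPM in DMSO and 412.2, 387.8 and 397.9 CPM in the lapatinib combination. Its log2 FC was 0.46, 0.48 and 0.47 under TMM and −0.23, −0.15 and −0.07 with the mitochondrial scaling. The share of PAPOLG in the counts of both fell from between 5.88% and 6.03% in DMSO to between 0.755% and 1.15% in the lapatinib combination, 0.76% and 1.11% in the nilotinib combination and 0.677% and 1.49% with 1 µM THZ531. RBBP6, a ubiquitin ligase that activates cleavage, fell by 1.21, 1.40 and 1.51 on the log2 scale. PABPN1, the nuclear poly(A)-binding protein, had values of −0.13 and 0.00 in the combinations, neither called, and 0.29 with 1 µM THZ531, a call that was lost without DMSO replicate 3 (0.18, adjusted p 0.0917) and was −0.25 with the mitochondrial scaling. Its locus is shared with the same-strand gene BCL2L2-PABPN1, whose counts equal 0.0% of its own. How reads in shared exons were counted is not known.

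The 3 termination genes were all higher in both combinations under TMM. SCAF8 and SCAF4, which bind the Pol II C-terminal domain and keep Pol II from ending at early polyadenylation sites, come first. SCAF8 (chromosome 6, 154733378 to 154834244, plus strand) measured 37.6, 39.8 and 37.3 CPM in DMSO, 71.3, 106.8 and 96.8 CPM in the lapatinib combination and 70.1, 100.8 and 112.6 CPM in the nilotinib combination. With 1 µM THZ531 it measured 56.8, 30.3 and 52.7 CPM, a range that included the DMSO values. There replicate 2 lay below all DMSO libraries, while replicates 1 and 3 lay above them. The value for 1 µM THZ531 without replicate 2 is not given. The log2 FC of SCAF8 was 1.26 ± 0.192, 1.31 and 0.28 (not called), and the rise in the combinations was called under every scaling tried. Replicate 1 was the lowest library of each combination, and without it the log2 FC was 1.41 and 1.48. SCAF4 measured 34.9, 43.2 and 35.2 CPM in DMSO, 43.5, 64.6 and 69.3 CPM in the lapatinib combination and 39.95, 24.8 and 34.2 CPM with 1 µM THZ531. The log2 FC was 0.65, 0.44 and −0.19 (not called) under TMM, and −0.04 and −0.19 in the combinations with the mitochondrial scaling. Replicate 1 was again lowest in the combinations, and without it the values were 0.83 and 0.56. The call in the nilotinib combination was lost without DMSO replicate 1 or 3 or nilotinib combination replicate 2 or 3 (adjusted p up to 0.164). XRN2, the nuclear 5′ to 3′ exonuclease, measured 161.7, 145 and 160.8 CPM in DMSO and 244.4, 232.2 and 231.6 CPM in the lapatinib combination (0.60, then 0.65 and 0.52; −0.09 in the lapatinib combination and −0.03 with 1 µM THZ531 with the mitochondrial scaling).

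The U1 snRNP proteins were higher in both combinations under TMM, and none was called higher in the lapatinib combination with the mitochondrial scaling. SNRNP70, which binds the first stem-loop of U1 RNA, measured 134.6, 147.4 and 140.9 CPM in DMSO and 214.0, 240.9 and 257.2 CPM in the lapatinib combination (log2 FC 0.75, 0.70 and 0.60 in the 3 treatments). SNRPC, which helps to hold the 5′ splice site, measured 96.3, 89.7 and 100.4 CPM in DMSO and 170.4, 148.7 and 154.7 CPM in the lapatinib combination (0.73, 0.62 and 0.52). SNRPA, which binds the second stem-loop, measured 107.5, 114.4 and 112.6 CPM in DMSO and 124.7, 118.1 and 123.7 CPM in the lapatinib combination. This shift was small (0.13, 0.15 and 0.12, the last not called), was called in the opposite direction in the combinations with library size alone (−0.20 and −0.15, edgeR adjusted p = 0.00316 and 0.0177) and with the mitochondrial scaling (−0.55 and −0.47, 0.000607 and 0.00321), and lost its call in the lapatinib combination in 17 of 21 fits that left out a library (adjusted p up to 0.162). In the nilotinib combination it was lost in 3 of 21, without DMSO replicate 1 or nilotinib combination replicate 1 or 2 (adjusted p up to 0.0991).

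Of the 14 Integrator subunits, 10 were lower in each of the 3 treatments, beside 37.8%, 37.3% and 36.8% of all tested genes, and 1 was higher in the lapatinib combination and 2 in each of the others (34.3%, 33.7% and 33.1%). With the mitochondrial scaling 13, 13 and 12 were lower and 0 higher. The median of all genes was then itself −0.69, −0.633 and −0.553, so the shares above do not apply. With DESeq2's size factors 10, 8 and 9 were lower and 2 higher in each, for which no shares of all genes are given. The median log2 FC of the 14 was −0.61, −0.57 and −0.87, and that of the 26 other genes −0.40, −0.24 and −0.35. In the structural core, INTS2 measured 16.5, 15.2 and 15.1 CPM in DMSO, 3.60, 3.04 and 3.34 CPM in the lapatinib combination and 5.596, 4.33 and 4.44 CPM with 1 µM THZ531, with a log2 FC of −2.23, −2.28 and −1.70. INTS1, the largest subunit, measured 139.7, 172.7 and 156 CPM in DMSO and 205.1, 245.1 and 255.7 CPM in the lapatinib combination. Its log2 FC was 0.59, 0.62 and 0.72 under TMM, and −0.09 and −0.003 in the combinations with the mitochondrial scaling. INTS7 fell by 0.57, 0.60 and 0.93, and INTS12, a small subunit with a PHD finger, by 0.65, 0.54 and 0.96.

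INTS5, INTS6 and INTS8 belong to the part of Integrator that holds the phosphatase PP2A. INTS5, chosen for description after its values were seen, measured 41.7, 40.6 and 41.1 CPM in DMSO and 7.79, 9.81 and 10.7 CPM in the lapatinib combination (log2 FC −2.12, −2.35 and −2.27). INTS6 fell by 0.34, 0.72 and 0.76. INTS8 fell by 0.53 in the lapatinib combination and had values of −0.24 and −0.21 in the others, of which the first was called but lost in 11 of 21 fits that left out a library (adjusted p up to 0.177), and the second was not called. Counts of CCNE2, which overlaps INTS8, equal 27.7% of those of INTS8.

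The cleavage module holds INTS11, the endonuclease, its inactive partner INTS9, and INTS4. INTS9 fell by 1.49, 1.44 and 1.32 on the log2 scale. INTS11 had values of 0.14 (not called), 0.24 and 0.31 under TMM and −0.38 and −0.22 in the last 2 with the mitochondrial scaling, and INTS4 had −0.23 (called), −0.06 and −0.05. Overlapping genes carry counts equal to 27.6% of those of INTS11 (PUSL1) and 39.4% of those of INTS4 (AAMDC), which unstranded libraries cannot separate. In the arm made of INTS10, INTS13 and INTS14, INTS14 measured 32.1, 27.6 and 32.1 CPM in DMSO, 9.24, 7.86 and 7.57 CPM in the lapatinib combination and 11.2, 12.5 and 11.7 CPM with 1 µM THZ531 (log2 FC −1.89, −1.91 and −1.38). INTS13 fell by 0.72, 0.46 and 0.81, and INTS10 had −0.11 and −0.13 in the combinations, neither called, and −0.22 with 1 µM THZ531, a call lost without DMSO replicate 1 or 3 or 1 µM THZ531 replicate 1 (adjusted p up to 0.0825).

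INTS3, which also forms the SOSS complex in DNA repair, was the least abundant of the 40 and scattered widely. It measured 4.02, 7.64 and 1.40 CPM in DMSO, 1.60, 7.70 and 3.74 CPM with lapatinib and 0.779, 5.18 and 1.43 CPM with nilotinib. In the treatments with THZ531 it measured 1.29, 1.30 and 1.36 CPM at 0.1 µM, 3.18, 0.536 and 1.24 CPM in the lapatinib combination, 1.43, 2.27 and 0.528 CPM in the nilotinib combination and 0.955, 1.01 and 1.09 CPM at 1 µM. The range within DMSO was as wide as most differences between groups. The log2 FC of −1.40 in the lapatinib combination was not called, that of −1.63 in the nilotinib combination was lost in 12 of 21 fits that left out a library (−0.95 without DMSO replicate 2, adjusted p up to 0.273), and that of −2.10 with 1 µM THZ531 was lost without DMSO replicate 2 (adjusted p 0.109).

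Which genes responded to each agent alone was asked next. With 0.1 µM THZ531, 4 of the 40 genes were lower and 0 higher than DMSO (4.31% and 1.78% of all tested genes). At an unadjusted p under 0.05, 7 were lower and 0 higher. Those shares of all genes do not apply to that threshold, for which none is given. DESeq2's Wald test gave 4 and 0. CSTF3 fell by 1.27 ± 0.084 on the log2 scale (edgeR adjusted p = 6.318e-08), from 46.6 to 49.8 CPM in DMSO to 16.8 to 22.1 CPM, and was called in every fit. The other calls are named after their values were seen. SYMPK fell from 62.9, 82.8 and 69.9 CPM to 46.6, 50.0 and 54.0 CPM (log2 FC −0.52, edgeR adjusted p = 0.002583). CPSF2 fell from 149, 133.3 and 146 CPM to 118.8, 113.6 and 105.9 CPM (−0.34, 0.02008), and INTS6 from 27.9, 25.1 and 25.0 CPM to 21.7, 20.98 and 20.03 CPM (−0.32, 0.01435). No library overlapped between the groups for these 4 genes. The CPSF2 call was lost without DMSO replicate 1 or 3 or 0.1 µM THZ531 replicate 2 or 3 (adjusted p up to 0.0959), and the INTS6 call without DMSO replicate 1 or 0.1 µM THZ531 replicate 2 or 3 (up to 0.0888), so that 2 genes remained in some fits and 1 with the mitochondrial scaling. All 3 libraries lay below DMSO for 13 genes and above for 3 (15.4% and 16.5% of all genes).

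With lapatinib or nilotinib alone, 0 of the 40 genes were called in either direction in edgeR (all genes, 0.0561% lower and 0.256% higher with lapatinib, 0.0998% and 0.243% with nilotinib), and 0 in DESeq2's Wald test. At an unadjusted p under 0.05, PABPN1 was the 1 gene on the lower side with lapatinib (log2 FC −0.22) and SNRPA the 1 gene on the higher side with nilotinib (0.13). The share of all genes at that unadjusted threshold is not given. The smallest adjusted p of the 40 genes in edgeR was 0.638 with lapatinib and 0.461 with nilotinib. All 3 libraries lay below DMSO for 5 genes and above for 2 with lapatinib (7.83% and 7.84% of all genes), and below for 3 and above for 2 with nilotinib (9.82% and 10.8%).

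An interaction term then compared the effect of 0.1 µM THZ531 in the presence of lapatinib or nilotinib with its effect in their absence. It was lower for 19 and higher for 9 of the 40 genes with lapatinib (32% and 28.2% of all genes), and lower for 18 and higher for 9 with nilotinib (31.2% and 25.6%). For CPSF7 the term was −2.26 with lapatinib and −2.24 with nilotinib, so that the fall in each combination exceeded the sum of the single effects by that amount. For CSTF3, which 0.1 µM THZ531 already lowered, it was −0.34 and −0.36.

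Both combinations were also compared with 1 µM THZ531, a dose 10 times as high as the one they contain. In the lapatinib combination 9 of the 40 genes were lower and 9 higher than with 1 µM THZ531 (16.1% and 12.8% of all genes), and in the nilotinib combination 4 were lower and 8 higher (13% and 11.2%). SCAF8 was higher by 0.98 ± 0.191 (edgeR adjusted p = 6.077e-04) and 1.02 ± 0.191 (4.849e-04), and every combination library lay above every library with 1 µM THZ531. The lowest 1 µM THZ531 library for SCAF8 was replicate 2 (30.3 CPM), beside 56.8 and 52.7 CPM in replicates 1 and 3. CLP1 was higher by 0.95 and 0.54, of which the second was 0.33 without 1 µM THZ531 replicate 2. SCAF4 was higher by 0.84 and 0.63, the second lost without nilotinib combination replicate 2 or 3 or 1 µM THZ531 replicate 2 (adjusted p up to 0.1). FIP1L1 was higher by 0.59 and 0.60, and CPSF6 by 0.36 in both. The CPSF6 difference was not called in either combination with the mitochondrial scaling (0.21 and 0.28). INTS2 was lower by −0.52 ± 0.108 (edgeR adjusted p = 9.903e-04) and −0.58 ± 0.109 (4.887e-04), and INTS14 by −0.52 and −0.53, again without overlap of libraries. PCF11 was lower by −0.47 and −0.49, which was lost in 3 and 4 of 21 fits that left out a library, namely those without 1 µM THZ531 replicate 1 or 3, lapatinib combination replicate 1 (−0.28) or nilotinib combination replicate 1 or 2 (adjusted p up to 0.164).

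CPSF7 and CSTF2T, which fell most against DMSO, were not called different from 1 µM THZ531. Their log2 FC was −0.17 ± 0.104 (edgeR adjusted p = 0.2561) and −0.14 ± 0.16 (0.5828) in the lapatinib combination, and −0.08 ± 0.103 (0.6503) and −0.44 ± 0.161 (0.05167) in the nilotinib combination. In a fit of only the groups compared, 4 genes were lower in the lapatinib combination, and 1 was lower and 5 were higher in the nilotinib combination (shares of all genes not given). Calls lost there in the nilotinib combination included INTS2 (edgeR adjusted p = 0.0627), CLP1 (0.0998), SCAF4 (0.0614) and PCF11 (0.109). PCF11 was lost in the lapatinib combination as well (0.182).

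**Figure D3:**
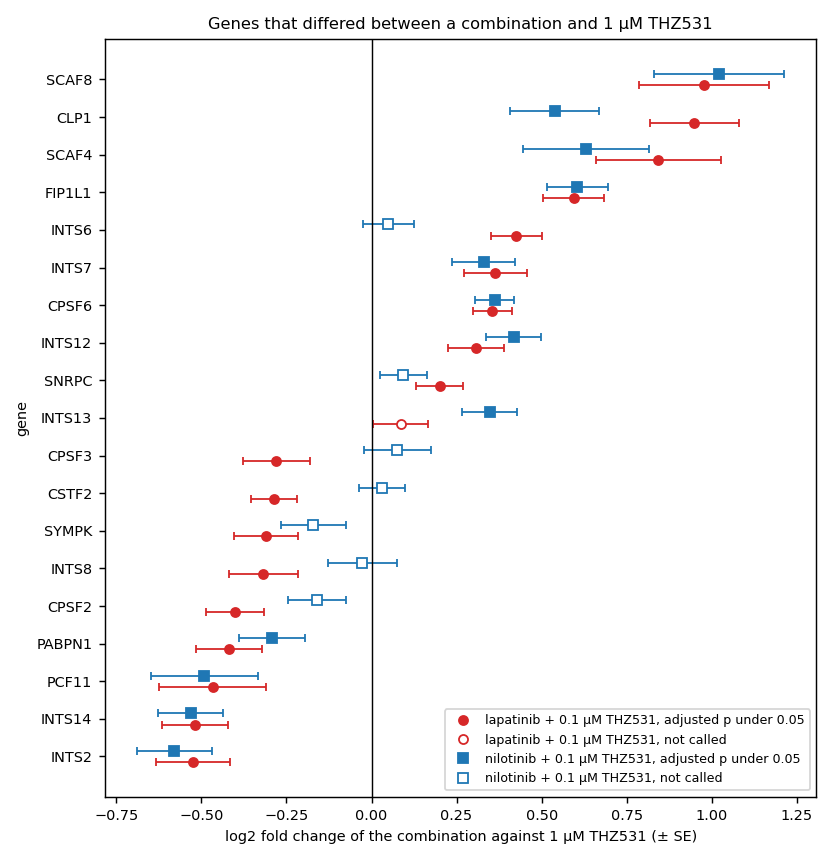
Log2 fold change (± SE, 3 libraries per group) against 1 µM THZ531 for the 19 genes called in either combination, with lapatinib as red circles and nilotinib as blue squares, filled where edgeR's adjusted p was under 0.05. SCAF8 lies highest and INTS2, INTS14 and PCF11 lowest in both combinations, while INTS6, CSTF2 and CPSF3 are filled for lapatinib only.

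Between the combinations 1 gene was lower and 1 higher with lapatinib (0.736% and 0.73% of all genes), and both are named after their values were seen. CSTF2 measured 25.0, 22.9 and 25.4 CPM in the lapatinib combination and 33.0, 29.9 and 28.5 CPM in the nilotinib combination (log2 FC −0.32, edgeR adjusted p = 0.02288). INTS6 measured 19.0, 21.6 and 21.1 CPM against 14.8, 15.5 and 17.2 CPM (0.38, 0.01483). The libraries did not overlap for either gene. Both calls were lost without lapatinib combination replicate 2 or 3 or nilotinib combination replicate 1 or 2 (adjusted p up to 0.109). The count of lower genes was 4 without lapatinib combination replicate 1 and 2 without 1 µM THZ531 replicate 2. Shares of all genes in those fits are not given.

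Other genes of the same pathways were taken from lists of known factors, though earlier results of these data were known. All 6 genes of histone 3′ end processing, which ends replication-dependent histone mRNAs without a poly(A) tail, were lower in the lapatinib combination under every scaling tried, from −4.26 for CASP8AP2 (FLASH) to −0.41 for SLBP, the stem-loop binding protein. They were lower in the nilotinib combination and with 1 µM THZ531 as well. Over all tested genes, 37.8% were lower and 34.3% higher in this comparison. Of 9 further Integrator partners, 5 were lower and 4 higher, from NABP1 (−2.74), a SOSS protein, to PPP2CB (0.73), a catalytic subunit of PP2A. Of 12 poly(A) and nuclear RNA decay genes, 7 were lower and 3 higher, from ZCCHC8 (−2.92), a subunit of the NEXT complex, to SRRT (0.86), which encodes ARS2. Of 12 tested termination genes, 7 were lower and 4 higher, from ZC3H4 (−3.83), which restricts non-coding transcription, to PPP1CB (0.56), a PP1 catalytic subunit. With the mitochondrial scaling these 3 lists had 5, 9 and 7 lower and 0 higher genes. The median log2 FC of all tested genes was then itself −0.69, so the shares above do not apply. PPP1R10 did not pass the filter on low counts.

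Of the 12 Sm core and U1-associated genes, 10 were higher and 1 lower in the lapatinib combination under TMM (34.3% and 37.8% of all tested genes), from LUC7L3 (1.26), a U1-associated splicing factor, to SNRPD1 (−0.36), an Sm protein. With the mitochondrial scaling the same list had 1 higher and 2 lower and a median log2 FC of −0.07 in place of 0.61. In the nilotinib combination the lists had 6 lower and 0 higher (histone ends), 5 and 4 (Integrator partners), 7 and 5 (poly(A) and decay), 6 and 4 (termination) and 2 and 10 (U1). With 1 µM THZ531 they had 6 and 0, 5 and 3, 7 and 4, 5 and 2, and 1 and 9.

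Levels between genes were compared per kilobase of the Ensembl canonical transcript. In DMSO, SNRPC was highest at 118 ± 6.68 CPM per kb (SD, n = 3), followed by SNRPA at 87.3 ± 2.81 and SNRNP70 at 84.4 ± 3.82, which did not differ beyond their spread. PAPOLA followed at 64.5 ± 2.89. INTS2 (2.54 ± 0.13), PAPOLG (2.50 ± 0.105) and INTS3 (0.829 ± 0.596) were lowest, and the first of these 3 did not differ from the second beyond the spread. In CstF the order in DMSO was CSTF3 (17.2 ± 0.588), CSTF2 (13.5 ± 0.21), CSTF1 (10.5 ± 0.4) and CSTF2T (8.72 ± 0.256). In the lapatinib combination it was CSTF2 (9.50 ± 0.538), CSTF3 (5.20 ± 0.435), CSTF1 (2.04 ± 0.283) and CSTF2T (1.27 ± 0.227). In CFIm, CPSF7 was above CPSF6 in DMSO (35.4 ± 1.04 against 13.3 ± 0.291) and below it in the lapatinib combination (5.92 ± 0.524 against 26.8 ± 0.942).

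**Figure D4:**
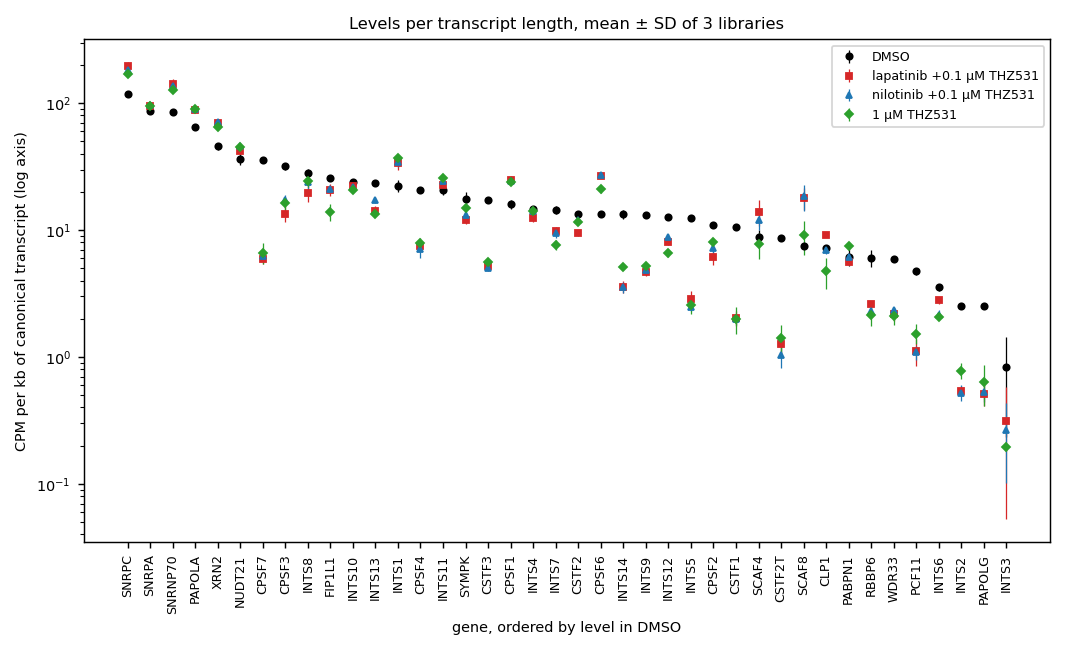
CPM per kb of canonical transcript (log axis, mean ± SD of 3 libraries) of the 40 genes, ordered by their level in DMSO (black), with the lapatinib combination (red), the nilotinib combination (blue) and 1 µM THZ531 (green). The U1 proteins and PAPOLA lie at the top left, INTS3 lies lowest with a wide error, and CPSF7 drops from 35.4 to 5.92 CPM per kb with the lapatinib combination.

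Loss of CDK12 activity is known to act on long genes, so gene structure was set beside the changes. Across the 40 genes, the Spearman correlation between gene span and log2 FC was 0.04, 0.05 and 0.01 in the 3 strong treatments, beside −0.15, −0.10 and −0.11 across 13747 protein-coding genes. These are correlations across genes of the same libraries, which are not independent replicates, and no test was made. The genes that fell far included some with little or no intron. CSTF2T has 1 exon and spans 4.1 kb, and INTS5 has 2 exons and spans 6.5 kb. Among the coding genes with 1 exon the median log2 FC in the lapatinib combination was −0.04 (38.9% lower), and among those with 2 exons it was −0.12 (41.2% lower). In the nilotinib combination the medians were −0.21 (41.6% lower) and −0.21 (42.1% lower). With 1 µM THZ531 they were −0.38 (43.8% lower) and −0.44 (49.6% lower).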

How the data were processed

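RNA-seq was done on 21 libraries of Hs578T cells, in 7 treatment groups of 3. The authors deposited raw counts per gene, without normalization. Per the labels and the study's methods, polyA-selected unstranded libraries were aligned to GRCh38 with HISAT2 2.1.0 and counted with featureCounts. The gene annotation, and whether featureCounts took fragments or reads, are not given in the sources used here. Even numbers made up 51.7% to 56.3% of counts between 10 and 199 per library. The study describes 3 independent experiments. If the libraries shared cultures, p-values measure only technical spread.

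Of 28395 Entrez identifiers, 27745 matched a RefSeq symbol and held 99.98% of counts. 0 columns were left unused. Counts were tested in R 4.3.3 with edgeR 4.0.16 (filterByExpr, TMM, glmQLFit with 1 mean per group, glmQLFTest) with Benjamini-Hochberg adjustment over 16036 genes. Each SE is the log2 fold change divided by the root of its F statistic. Alternatives were DESeq2 1.42.0 (size factors or Wald test), library size alone, mitochondrial mRNA scaling, a minimum of 10 counts per library or no filter, only the groups compared, the replicate block, and each library left out. The tests were tried on simulated counts. At these depths the spread between libraries sets the precision.

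The 40 genes and all lists were chosen with earlier results of these data known. Genes given in full were the lowest and highest of each complex in the lapatinib combination, CSTF2 and CSTF2T, up to 6 called by a single agent or by an interaction against the list's direction, and the 2 largest each way between a combination and 1 µM THZ531. Genes outside this rule are given by fold change or said to be picked after seeing values. Of the 40, 11 overlap another counted gene.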

Additional observations from a re-analysis of the deposited data

Results flagged for a closer look

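Results are listed here because the effect of 0.1 µM THZ531 differed with and without a kinase inhibitor by a test of the difference itself, the interaction term in edgeR at an adjusted p under 0.05. Each value is the log2 difference between the effect in the presence and in the absence of the inhibitor. With lapatinib the term was lower for 19 and higher for 9 of the 40 genes, and with nilotinib for 18 and 9. Values follow for the genes that the rule for full description selects, which include all 9 higher genes and only some of the lower ones.

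In the cleavage complexes the terms with lapatinib and nilotinib were −1.49 and −1.69 for CPSF4, 0.64 and 0.51 for CPSF1, −2.26 and −2.24 for CPSF7, and 1.02 and 0.96 for CPSF6. They were −2.53 and −2.81 for CSTF2T, −0.34 and −0.36 for CSTF3, and −1.85 and −1.70 for PCF11. CSTF2 was called with lapatinib (−0.43) and not with nilotinib, and the difference between the inhibitors in this term was not tested. The CSTF3 term with lapatinib was not called without 0.1 µM THZ531 replicate 1 (adjusted p 0.0579).

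Among the poly(A) and termination genes they were −2.60 and −2.40 for PAPOLG, 0.47 and 0.51 for PAPOLA, 0.47 and 0.61 for XRN2, 1.25 and 1.38 for SCAF8, and 0.96 and 0.79 for SCAF4. For the U1 proteins they were 0.74 and 0.54 for SNRNP70 and 0.76 and 0.50 for SNRPC. In Integrator they were −2.15 and −2.05 for INTS2, 0.58 and 0.53 for INTS1, and −1.86 and −1.82 for INTS14. The positive terms depend on the scaling, since only 2 genes were called higher with either inhibitor when libraries were scaled to mitochondrial mRNAs. With 3 libraries per group, single values were not tested for outlying libraries.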

How the results depend on the processing

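The largest dependence was on scaling. Of 198 calls of single genes over all comparisons, scaling to mitochondrial mRNAs kept 138, weakened 37 below the threshold and turned 23. Library size alone kept 181, weakened 13 and turned 4. DESeq2's size factors kept 193, as did its Wald test, no filter kept 194 and at least 10 counts kept 197, with none turned. A fit of only the groups compared kept 175, and 27 of 198 calls were lost in at least 1 of the fits that left out a library. The annotation and the counted unit (pairs or ends) are unknown, and unstranded counts cannot separate overlapping genes. Only 8 h and 1 cell line were measured. The counts per gene used here do not show where in a gene the reads fell, so they do not show sites of cleavage. The study itself examined intronic polyadenylation sites and the exons around them in its RNA-seq reads.

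With library size alone, values against DMSO turned for NUDT21 (−0.13) and SNRPA (−0.2) in the lapatinib combination, and for SNRPA (−0.15) and INTS11 (−0.07) in the nilotinib combination. With the mitochondrial scaling they turned in the lapatinib combination for CPSF1 (−0.05), NUDT21 (−0.48), CLP1 (−0.34), PAPOLA (−0.23), SCAF4 (−0.04), XRN2 (−0.09), SNRPA (−0.55) and INTS1 (−0.09). In the nilotinib combination they turned for NUDT21 (−0.29), PAPOLA (−0.15), SCAF4 (−0.19), SNRPA (−0.47), SNRPC (−0.003), INTS1 (−0.003) and INTS11 (−0.38). With 1 µM THZ531 they turned for NUDT21 (−0.24), PAPOLA (−0.07), PABPN1 (−0.25), XRN2 (−0.03), SNRPC (−0.02) and INTS11 (−0.22). The interaction with lapatinib turned for PAPOLA (−0.08) and XRN2 (−0.07). The shift of the median of all genes under that scaling accompanies these turns.

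The mitochondrial scaling moved the count of higher genes against DMSO to 2 in each combination and 0 with 1 µM THZ531, that of lower genes with 0.1 µM THZ531 to 1, that of higher genes against 1 µM THZ531 to 4 for each combination, those between the combinations to 0 and 0, and those of higher interaction terms to 2 and 2. Library size alone and the Wald test each gave 2 lower genes between the combinations. A fit of only the groups compared gave 4 lower genes for the lapatinib combination against 1 µM THZ531, 1 lower and 5 higher for the nilotinib combination, and 0 and 0 between the combinations. Over the fits that left out a library, the count of lower genes was 2 to 4 with 0.1 µM THZ531, 2 to 5 for the nilotinib combination against 1 µM THZ531 and 0 to 4 between the combinations, where that of higher genes was 0 to 2. Shares of all genes under these alternatives are not given, so the moved counts cannot be set against them. The cause of the moved counts was not tested.

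Groups share replicate numbers, and the replicate block kept 198 of 198 calls, with 24 lower and 12 higher genes in the lapatinib combination. Whether the numbers pair the libraries was not settled. Of 63 same-number pairs, 36 had deviations correlated over 0.1 (mean 0.15, from −0.83 to 0.89, over 8794 genes). The mean for pairs with different numbers was −0.07, and 8 of 21 libraries correlated best with their own number.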
